A study of Mus musculus with 12 samples.

Results

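The immediate early genes and the feedback genes of growth factor signalling were examined in mouse embryonic fibroblasts (MEFs), connective tissue cells grown from embryos. The list holds 38 gene names. Its members were taken as the non-control probes that carry one of these names on the array, and 36 names were found there, with 51 probes, among 27670 named features and 41174 probes in all. Jund and Dusp5 were absent under those names, and 34 members were bright enough to be tested among 16844 tested features. RNA came from SIRT1 knockout (KO), heterozygous (Het) and wild-type (WT) MEFs, all labelled female, with 4 one-colour Agilent arrays per genotype and no special treatment. SIRT1 is an NAD-dependent protein deacetylase. All cultures were growing logarithmically at harvest, in DMEM that held 25 mM glucose, 4 mM of glutamine and serum from fetal calves at 10%. Each array took label from 500 ng of RNA. The labels do not say how the Sirt1 allele was made, nor whether replicates came from separate embryos or cultures, so the p-values weigh differences against an array-to-array spread that may be technical.

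Immediate early genes are switched on within minutes when serum or a growth factor reaches a resting cell, without the need for new protein, and are shut off again soon after. Receptor tyrosine kinases act through Ras and the kinases RAF, MEK and ERK, which phosphorylate ETS factors bound with serum response factor (Srf) at CArG boxes in the promoters of these genes. The products include transcription factors of the AP-1, EGR, NR4A and KLF families and proteins that shorten the response: Zfp36 destabilises messenger RNA, dual-specificity phosphatases (Dusp) inactivate MAP kinases, and Sprouty and Spred proteins restrain Ras and RAF. Ligands of the EGF receptor such as Hbegf, Areg and Ereg are also induced and act back on the same receptor. Fibroblasts are the cells in which the serum response is classically studied.

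Promoter sequences of 27 of the 38 members were found in a RefSeq table of build GRCm38.p6, with 250 bases before and 50 bases after the start of transcription. Dusp4, Egr1, Egr3, Ereg, Fosl1, Hbegf, Ier2, Klf10, Myc, Phlda1 and Spry4 have no entry in it. Both strands were searched for the CArG box, for the AP-1 site TGANTCA, for the cyclic AMP response element (CRE) TGACGTCA, for the ETS core CCGGAA and for the EGR site GCGNGGGCG. No search string contains another. The CArG box was found in the promoters of 4 of the 27 members (Dusp5, Egr2, Srf and Zfp36), 14.8%, against 1.81% of 27025 genes with a window. The CRE was found in 3 members (Areg, Dusp1 and Maff), 11.1%, against 2.03% of all genes, and the EGR site in 10 members, 37%, against 6.27%. The ETS core was found in 6 members, 22.2%, against 16.7%, and the AP-1 site in 0 of the 27, against 8.97%. A match describes letters only and is not a measured binding site. The stretches printed here end at the base before the start of transcription and were chosen because their genes differ in how far they moved on the array with the highest levels described further on: Zfp36 and Dusp1 stood far above the other arrays there, Maff and Egr2 less so, and Srf lay within their range. For Egr2 the stretch belongs to 1 of its annotated starts. Capitals mark the CArG box in the Zfp36, Srf and Egr2 promoters, with 2 copies in Srf, and the CRE in the Dusp1 and Maff promoters.
Zfp36, chr7:28379229-28379316, - strand: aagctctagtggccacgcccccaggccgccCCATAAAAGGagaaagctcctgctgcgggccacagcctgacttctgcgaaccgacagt
Srf, chr17:46556163-46556274, - strand: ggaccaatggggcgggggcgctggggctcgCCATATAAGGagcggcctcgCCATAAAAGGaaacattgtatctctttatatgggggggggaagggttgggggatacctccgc
Egr2, chr10:67537767-67537868, + strand: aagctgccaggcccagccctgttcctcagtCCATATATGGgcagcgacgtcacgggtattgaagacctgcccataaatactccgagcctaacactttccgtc
Dusp1, chr17:26508473-26508645, - strand: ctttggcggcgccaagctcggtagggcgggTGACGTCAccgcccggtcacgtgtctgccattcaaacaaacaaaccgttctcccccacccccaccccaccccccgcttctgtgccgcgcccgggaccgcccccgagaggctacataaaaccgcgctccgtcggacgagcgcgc
Maff, chr15:79347461-79347519, + strand: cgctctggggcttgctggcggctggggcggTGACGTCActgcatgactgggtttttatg

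A level is the log2 signal of a probe minus the log2 of its array's 75th percentile, so 0 equals that percentile, and probes of different genes are not compared in level. Values are listed by replicate number, 2, 3, 4 and 5 for KO and Het arrays and 1, 2, 3 and 5 for WT arrays. The arrays lay on 4 slides, with WT replicate 1 alone on slide 2, and had 24585 to 32033 probes well above background. At the Sirt1 probe spanning bases 62838289 to 62838348 of chromosome 10 (build mm7), the signal lay at -0.75 to -0.19 on KO, 0.33 to 0.39 on Het and 0.06 to 0.52 on WT arrays. A further Sirt1 probe did not separate the genotypes. WT replicate 3 went against its female label, with Xist at -2.94, against 1.66 to 3.42 on the other 11 arrays, and the Y-linked Ddx3y at 1.04, against -10.16 to -4.35. Arrays of the same genotype correlated at 0.987 to 0.998 over all tested features where neither was numbered 3 nor was WT replicate 1. Pairs with an array numbered 3 correlated at 0.925 to 0.969, and WT replicate 1 correlated at 0.97 and 0.974 with WT replicates 2 and 5. KO replicates 4 and 5 shared a slide and correlated at 0.998. All 10 fibroblast markers were well above background on all 12 arrays, with a summed level of 9.01 to 9.2 on KO, 9.07 to 9.46 on Het and 8.85 to 9.14 on WT arrays. Among them Thy1, a surface glycoprotein, lay at 0.13 to 0.79 on KO, 2.58 to 3.06 on Het and 3.10 to 4.76 on WT arrays, and fell in KO against WT (-3.47, limma adjusted p = 0.00167) and against Het (-2.16, limma adjusted p = 0.01). The summed level of 5 mesothelial markers was -0.52 on WT replicate 3, against 2.64 to 5.6 on the other arrays. Msln stood at -1.1 there, against 2.59 to 5.58. The other tested markers did not fall: Krt7 at -2.61 lay within the other arrays (-3.32 to 0.84), and Upk3b at -4.15 was highest there. Of these 5 markers 2 were well above background on all 12 arrays and 2 on none. Epithelial markers (5 of 8 on all arrays) lay at 1.75 to 2.61 on KO, 0.32 to 1.92 on Het and 1.55 to 4.18 on WT arrays, and macrophage markers (1 of 8 on all arrays, 1 on none) and endothelial markers (2 of 6 on all, 2 on none) were low. Both sums were highest on WT replicate 1, macrophage markers at -0.5, against -1.98 to -1.16 on the other arrays, and endothelial markers at -1.02, against -3.44 to -1.42. Single markers went both ways: among those tested, Cd68 (-1.33), Lyz2 (-2.03) and Kdr (-1.15) were highest there, but Csf1r (-6.2) was lowest. Tek lay at -5.36 on WT replicate 1, against -5.38 to -4.24 on the other arrays. The epithelial markers Epcam in KO (1.59, limma adjusted p = 0.0462) and Krt8 in Het (3.36, limma adjusted p = 0.0383) rose against WT, and the mesothelial Upk3b fell in Het (-3.15, limma adjusted p = 0.0409). The part of these markers in the results was not tested, and in bulk RNA fewer cells of a type and less RNA per cell cannot be told apart.

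None of the 34 members differed between genotypes at an adjusted p under 0.05 (limma, Benjamini-Hochberg over all tested features), where 1.64%, 1.18% and 0.997% of all features did in KO against WT, Het against WT and KO against Het, shares too low to read the count of 0 against. The genes moved together on single arrays: WT replicate 1 held the highest of the 12 levels for 29 of 34 members, with Fosb, Fos and Zfp36 far above every other array, and WT replicate 3 held the lowest for 25 of 34. In KO cells 29 of 34 members lay below Het cells (18 of 34 on unscaled signals), with a median log2 difference of -0.31, against -0.02 for all tested features. With the arrays numbered 3 left out, 10 of 34 members (29.4%, against 17.3% of all features) fell in KO against WT, among them the AP-1 genes Fosl1, Jun, Fosl2 and Maff. In KO against Het 1 member (2.94%, against 8.98%) fell, the feedback inhibitor Spry4.

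**Figure D1:**
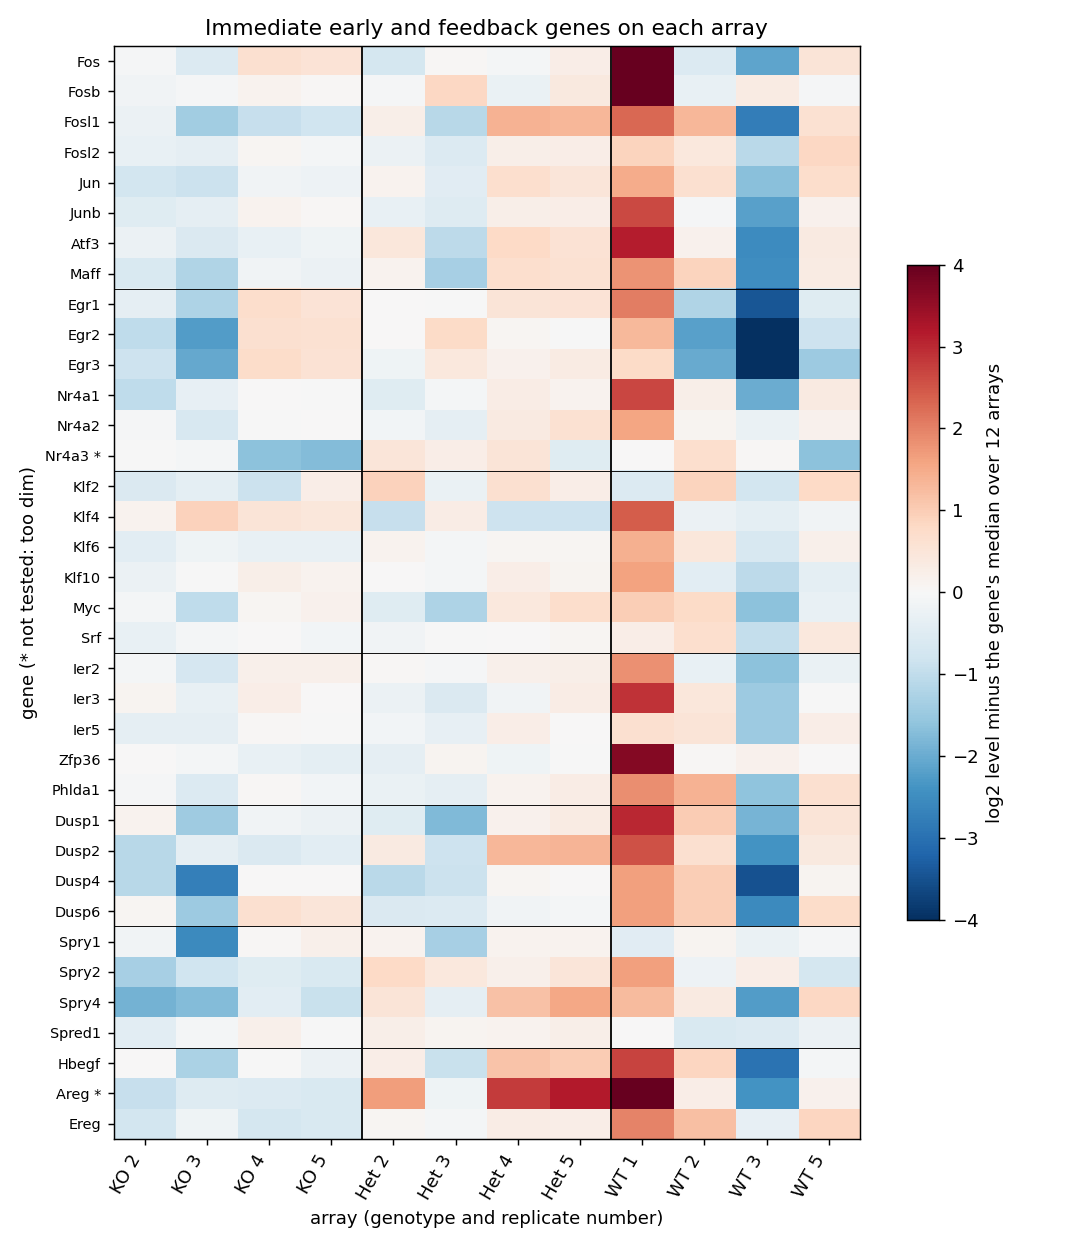
Level of each of the 36 members present on the array (rows, grouped by role; * marks the 2 that were too dim to test) on the 12 arrays (columns, KO, Het and WT from left to right), as log2 level minus the gene's median over the arrays, with colours limited to 4 in each direction. The WT 1 column is red for nearly all genes and the WT 3 column is blue for most.

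For KO against WT, 7 members were higher and 27 lower, with a median difference of -0.50 and an SE of 0.67 for the median member, against 0.08 and 0.25 over all tested features. The count of members called was 0 of 34, against 1.64% of all tested features, and 2 members had an unadjusted p under 0.05, against 16.5%. The KO and WT arrays did not overlap for 1 member, Zfp36 (lower in KO), against 8.84% of all features. For Het against WT, 12 members were higher and 22 lower, with a median of -0.10, against 0.08. No member was called, against 1.18% of all features, 1 had an unadjusted p under 0.05, against 16.3%, and 1 did not overlap (Spred1, higher in Het), against 9.3%. For KO against Het, 5 members were higher and 29 lower. No member was called, against 0.997%, 2 had an unadjusted p under 0.05, against 11.2%, and 4 did not overlap, all lower in KO (Spry2, Spry4, Ereg and Klf6), against 10.6%. On unscaled signals 16 of the 34 were higher in KO than in Het and 18 lower, while the median of all features moved to 0.23, so the direction of KO against Het is relative to the scaling of the arrays. For Het against WT the unscaled split was 8 higher and 26 lower, with the median of all features at -0.15. A block for slide also takes WT replicate 1 out of the genotype differences, since that array lies alone on slide 2. With the slide as a block the members' medians were -0.16 for KO against WT, 0.50 for Het against WT and -0.36 for KO against Het. Without WT replicate 1 they were -0.05, 0.34 and -0.31, so the KO against WT shift all but ended and that of Het against WT turned round. That omission keeps WT replicate 3, the lowest array for most members. Without the arrays numbered 3 the medians were -1.03, -0.49 and -0.16. With WT replicate 1 left out as well they were -0.47, -0.08 and -0.16, so the KO against WT shift then remained. KO against WT and Het against WT share the WT arrays. The exact two-sided permutation test of 4 against 4 arrays cannot go below p = 0.0286, which is the value for each of these non-overlapping members.

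The members are given by role, beginning with AP-1, the dimeric factor built from Fos and Jun proteins. Fos stood at -1.02, -1.53, -0.36 and -0.44 on the KO arrays, -1.68, -0.95, -1.07 and -0.73 on the Het arrays and 3.72, -1.52, -3.10 and -0.46 on the WT arrays. Fosb stood at -3.77, -3.67, -3.48 and -3.58 on the KO arrays, -3.68, -2.81, -3.89 and -3.23 on the Het arrays and 2.55, -3.92, -3.30 and -3.68 on the WT arrays. WT replicate 1 lay far above every other array for both genes, and the other 11 arrays overlapped across genotypes. The Fosb probe lies on chromosome 7 (16985502 to 16985561, minus strand) and the Fos probe on chromosome 12 (83478431 to 83478490, plus strand), on build mm7. Fosb differed by -1.54 for KO against WT (SE 1.14, limma adjusted p = 0.556) and by -1.31 for Het against WT (SE 1.14, limma adjusted p = 0.606). Without WT replicate 1 these differences were 0.01 and 0.23, and with the slide as a block Het against WT was 0.17. Fosl1 stood at -0.88, -2.05, -1.58 and -1.46 on the KO arrays, -0.43, -1.76, 0.73 and 0.66 on the Het arrays and 1.65, 0.68, -3.43 and -0.05 on the WT arrays. Fosl1, whose product Fra-1 accumulates under sustained ERK activity, was lower on all 4 KO arrays than on Het replicates 2, 4 and 5 and WT replicates 1, 2 and 5, and it was low as well on Het replicate 3 and WT replicate 3. KO against Het was -1.29 (SE 0.93, limma adjusted p = 0.687; exact permutation p = 0.114). The Fosl1 probe spans bases 5350302 to 5350361 of chromosome 19.

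The other AP-1 genes were Fosl2, Jun, Junb, Atf3 and Maff, a small Maf protein. All 8 tested AP-1 members lay lower in KO than in WT, by -1.54 to -0.32 with a median of -0.64. Without WT replicate 1, 4 of the 8 lay higher in KO, with Fos at 0.86, Fosb at 0.01, Junb at 0.51 and Atf3 at 0.34. In KO against Het, 7 of 8 lay lower, none past the test. Their lowest adjusted p for KO against WT was 0.545. Jun stood at 0.29, 0.14, 0.88 and 0.81 on the KO arrays, 1.15, 0.57, 1.68 and 1.51 on the Het arrays and 2.50, 1.66, -0.67 and 1.71 on the WT arrays. Jun was lower in KO than in the Het array of the same number for each of numbers 2, 3, 4 and 5. Junb lay between 2.15 on WT replicate 3 and 6.97 on WT replicate 1. Atf3 lay between -1.91 on WT replicate 3 and 3.77 on WT replicate 1. Maff lay between -1.64 on WT replicate 3 and 2.65 on WT replicate 1. These 3 genes, like Fos, were highest on WT replicate 1 and lowest on WT replicate 3. Fosl2 lay between -0.70 on WT replicate 3 and 1.28 on WT replicate 1. A further Fosl2 probe gave 0.23 for KO against Het where the brighter one gave -0.09. Jund stands on the array as Jund1 and is therefore outside the rule. Its level was 4.67 to 4.79 on KO, 4.96 to 5.06 on Het and 4.67 to 5.57 on WT arrays, lower in KO than in Het without overlap (-0.27, limma adjusted p = 0.638).

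The zinc finger factors Egr1, Egr2 and Egr3 lay higher in KO and in Het than in WT, by 0.68 to 2.11, none past the test. Without WT replicate 3 the KO against WT values were -0.20 for Egr1, 0.07 for Egr2 and 0.52 for Egr3, so Egr1 turned round, and those of Het against WT were 0.15, 0.77 and 1.10. That omission keeps WT replicate 1, the highest array for all 3 genes. Without WT replicate 1 and the arrays numbered 3, Egr1 averaged 4.32 in KO, 4.38 in Het and 3.17 in WT cells. Egr2 averaged 0.87, 0.82 and -0.71 on the same arrays, and neither gene was called. Egr1 stood at 3.67, 2.77, 4.72 and 4.56 on the KO arrays, 4.04, 4.00, 4.52 and 4.58 on the Het arrays and 6.06, 2.81, 0.59 and 3.52 on the WT arrays. Egr2 stood at -0.23, -1.43, 1.44 and 1.41 on the KO arrays, 0.81, 1.55, 0.87 and 0.78 on the Het arrays and 2.10, -1.38, -3.60 and -0.04 on the WT arrays. Egr3 stood at -3.50, -4.73, -1.94 and -2.10 on the KO arrays, -2.84, -2.25, -2.52 and -2.36 on the Het arrays and -1.92, -4.71, -7.61 and -4.14 on the WT arrays. For all 3 genes WT replicates 2, 3 and 5 lay below all 4 Het arrays, WT replicate 1 was the highest of the 12, and KO replicate 3 was the lowest KO array. Egr3 differed by 1.53 for KO against WT (SE 0.98, limma adjusted p = 0.483) and by 2.11 for Het against WT (SE 0.98, limma adjusted p = 0.316). Egr2 differed by 1.73 for Het against WT (SE 1.02, limma adjusted p = 0.425). Egr3 was well above background on 3 of 4 WT arrays, so its fold rests partly on signals near background. Its other probe was well above background on 2 of 12 arrays. The Egr2 probe lies on chromosome 10 (67145376 to 67145435) and the tested Egr3 probe on chromosome 14 (64726656 to 64726715). Nr4a1 and Nr4a2, orphan nuclear receptors, differed from WT by -0.66 to -0.26, within their spread. Nr4a1 lay between 0.95 on WT replicate 3 and 5.59 on WT replicate 1. Nr4a2 lay between -1.43 on KO replicate 3 and 0.79 on WT replicate 1. No array showed Nr4a3 well above background.

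Of the KLF zinc finger factors, Myc and Srf, Klf4 differed most between KO and Het. Klf4 stood at 3.47, 4.27, 3.86 and 3.80 on the KO arrays, 2.43, 3.65, 2.50 and 2.50 on the Het arrays and 5.76, 3.11, 2.94 and 3.21 on the WT arrays. Klf4, a factor linked to growth arrest in fibroblasts, was low on Het replicates 2, 4 and 5 and high on Het replicate 3, and it was higher in KO than in Het for each of the 4 shared numbers. The difference was 1.08 (SE 0.55, limma adjusted p = 0.51). Klf10 lay between 0.46 on WT replicate 3 and 3.11 on WT replicate 1. Myc lay between 0.58 on WT replicate 3 and 3.22 on WT replicate 1. Klf6, Klf2, Klf10, Myc and Srf differed between KO and Het by -0.79 to -0.04. Klf6 lay lower in KO than in Het without overlap (-0.35), but its other probe gave 0.20. Klf6 lay between 2.92 on WT replicate 3 and 4.99 on WT replicate 1. Klf2 gave -0.79 at one probe and 0.03 at the other. Klf2 lay between 4.96 on KO replicate 4 and 6.75 on Het replicate 2. Srf lay between 1.80 on WT replicate 3 and 3.44 on WT replicate 2. The lowest and highest array of Klf2 were KO replicate 4 and Het replicate 2, unlike those of Klf6, Klf10 and Myc, which were highest on WT replicate 1.

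Among the other immediate early genes, Zfp36, which encodes the RNA-destabilising protein tristetraprolin, was also highest on WT replicate 1. Zfp36 stood at -0.33, -0.43, -0.65 and -0.75 on the KO arrays, -0.72, -0.24, -0.53 and -0.37 on the Het arrays and 3.32, -0.29, -0.19 and -0.33 on the WT arrays. WT replicate 1 stood apart, and WT replicates 2, 3 and 5 lay between -0.33 and -0.19, at the upper end of the KO and Het arrays. Before rounding all KO arrays lay below all WT arrays, although KO replicate 2 and WT replicate 5 are both printed as -0.33. KO against WT was -1.17 (SE 0.67, limma adjusted p = 0.419). The tested probe lies on chromosome 7 (25310682 to 25310724), and a further probe gave -0.20 on WT replicate 1, against -4.55 to -3.79 elsewhere. Ier2, Ier3 and Ier5, short-lived early response proteins, and Phlda1, which binds signalling phospholipids, differed between KO and WT by -0.74 to 0.01 and between KO and Het by -0.21 to 0.18. Ier2 lay between 0.73 on WT replicate 3 and 4.22 on WT replicate 1. Ier3 lay between -0.37 on WT replicate 3 and 3.99 on WT replicate 1. All of these genes were highest on WT replicate 1 and lowest on WT replicate 3. Ier5 lay between 3.11 on WT replicate 3 and 5.21 on WT replicate 1. Phlda1 lay between 0.83 on WT replicate 3 and 4.29 on WT replicate 1.

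The MAP kinase phosphatases remove phosphate from activated ERK, JNK and p38. Dusp1 stood at 1.38, -0.17, 1.11 and 1.02 on the KO arrays, 0.77, -0.51, 1.41 and 1.56 on the Het arrays and 4.25, 2.26, -0.63 and 1.75 on the WT arrays. Dusp2 stood at -5.11, -4.35, -4.56 and -4.43 on the KO arrays, -3.64, -4.81, -2.68 and -2.63 on the Het arrays and -1.46, -3.36, -6.38 and -3.62 on the WT arrays. Dusp1 was high on WT replicate 1 and low on all 3 arrays numbered 3, and Dusp2 was high on WT replicate 1 and on Het replicates 4 and 5. Dusp1 differed by -1.10 for Het against WT (SE 0.85, limma adjusted p = 0.552), and by 0.08 with the slide as a block. Dusp2 differed by -1.18 for KO against Het (SE 0.84, limma adjusted p = 0.685; well above background on 3 of 4 WT arrays and on all KO and Het arrays). Dusp4 and Dusp6, both induced by ERK and acting on it, differed between KO and Het by -0.49 and 0.26. Dusp4 lay between -4.95 on WT replicate 3 and 0.20 on WT replicate 1. Dusp6 lay between 0.05 on WT replicate 3 and 4.25 on WT replicate 1. The Dusp1 probe spans 24690398 to 24690455 of chromosome 17 and the Dusp2 probe 127079047 to 127079106 of chromosome 2.

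Sprouty genes are induced by the growth factors whose signalling their products restrain, and Spry2 and Spry4 lay lower on all KO arrays than on all Het arrays. Spry2 stood at -1.22, -0.68, -0.39 and -0.49 on the KO arrays, 0.91, 0.52, 0.32 and 0.58 on the Het arrays and 1.74, -0.10, 0.37 and -0.58 on the WT arrays. Spry4 stood at -6.39, -6.26, -4.93 and -5.41 on the KO arrays, -3.99, -4.88, -3.33 and -2.95 on the Het arrays and -3.24, -4.14, -6.73 and -3.68 on the WT arrays. The WT arrays spread across the KO and Het arrays for both genes. Spry2 differed by -1.28 for KO against Het (SE 0.41, limma adjusted p = 0.23; exact permutation p = 0.0286), and Spry4 by -1.96 (SE 0.70, limma adjusted p = 0.291; exact permutation p = 0.0286). With no overlap, KO had to be the lower one in all 4 shared numbers for both, so the numbers add nothing here. The other Spry2 probe gave -0.72 for KO against Het (SE 0.37). Spry4 was well above background on 2 of 4 KO, 4 of 4 Het and 3 of 4 WT arrays, so its fold rests partly on signals near background, and its other probe was well above background on 2 of 12 arrays. Against WT, Spry4 differed by -1.30 in KO (SE 0.70, limma adjusted p = 0.392). Spry1 stood at 1.58, -0.80, 1.79 and 1.94 on the KO arrays, 1.86, 0.42, 1.88 and 1.88 on the Het arrays and 1.29, 1.85, 1.47 and 1.68 on the WT arrays. Spry1 was low on KO replicate 3 and Het replicate 3, and the other 10 arrays lay between 1.29 and 1.94. Spred1 lay between 0.34 on WT replicate 2 and 1.18 on Het replicate 5. Spred1 was 0.51 higher in Het than in WT without overlap (SE 0.18, limma adjusted p = 0.182), while its other probes gave 0.00 and -0.05. The tested Spry2 probe lies on chromosome 14 (100321854 to 100321913, minus strand).

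**Figure D2:**
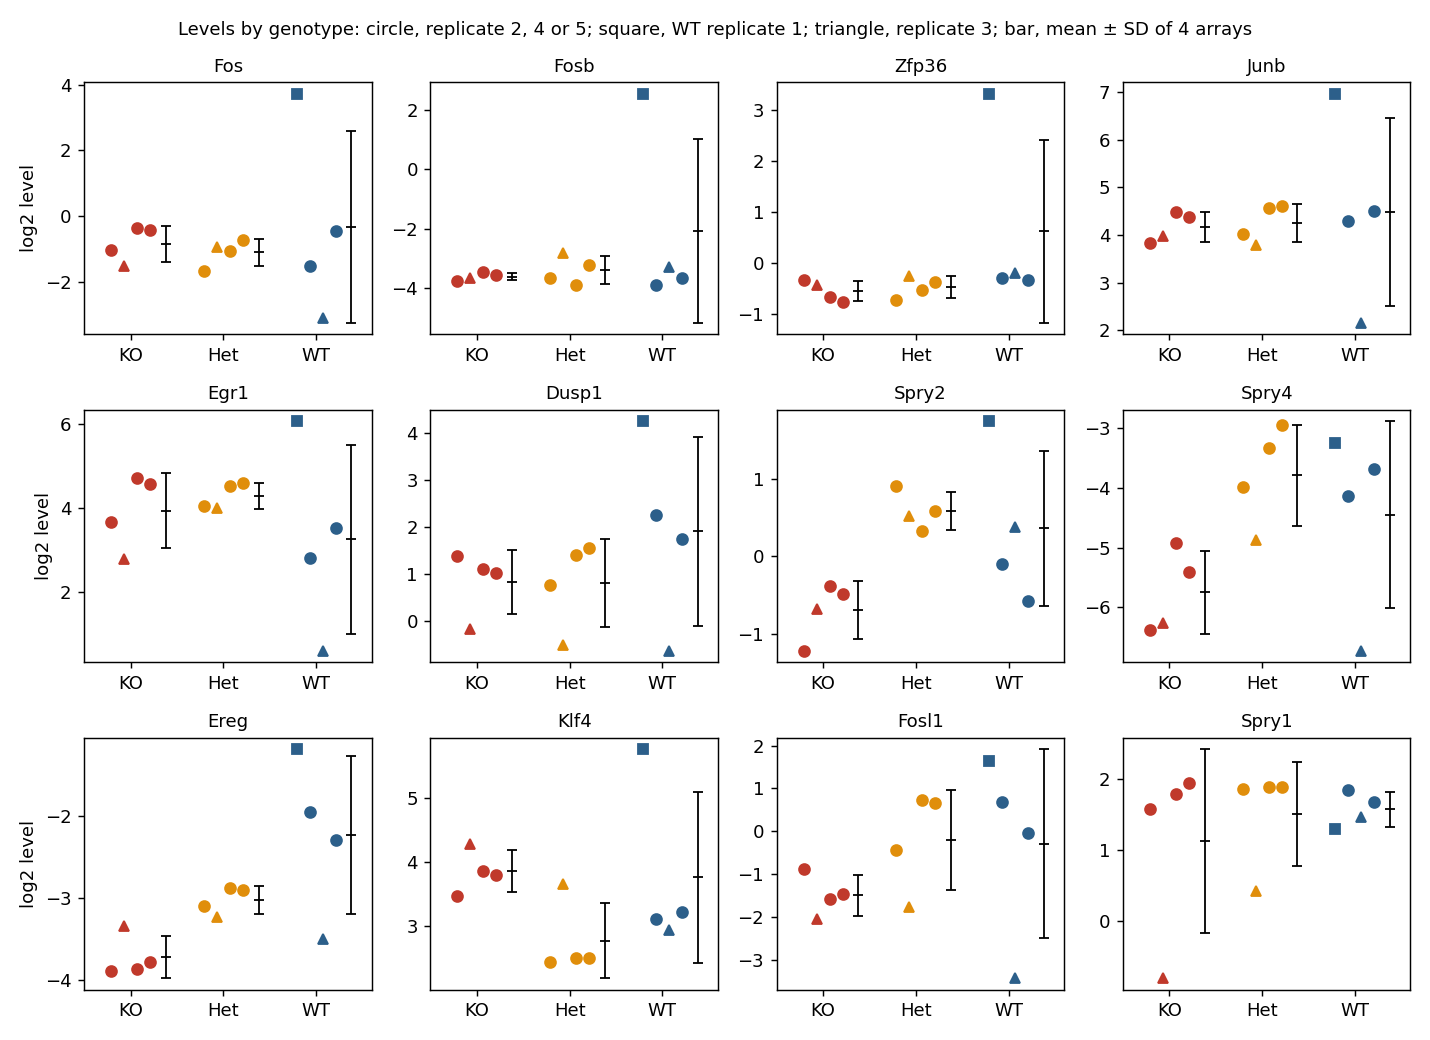
Log2 level of 12 members on each array by genotype (KO, Het and WT from left to right), with the mean ± SD of 4 arrays as bars; squares are WT replicate 1 and triangles are arrays numbered 3. WT replicate 1 is far above the rest for Fos, Fosb and Zfp36, and the KO arrays lie below the Het arrays for Spry2 and Spry4.

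The EGF receptor ligands were represented by Hbegf, Areg and Ereg. Ereg stood at -3.89, -3.34, -3.87 and -3.78 on the KO arrays, -3.10, -3.23, -2.88 and -2.90 on the Het arrays and -1.19, -1.96, -3.50 and -2.30 on the WT arrays. These values come from a probe for the transcript AK019057 that the array names Ereg. It lies on the minus strand of chromosome 5 (91040155 to 91040214), 40.7 kb from the start of the probe for the Ereg reference transcript, which lies on the plus strand (91080900 to 91080961), and whether it reports the Ereg messenger was not tested. At the AK019057 probe KO was low, Het intermediate and WT replicates 1, 2 and 5 high, with WT replicate 3 within the range of the KO arrays. KO against WT was -1.48 (SE 0.38, limma adjusted p = 0.0841; exact permutation p = 0.0571), the lowest adjusted p of any member in the 3 comparisons. The reference transcript's probe was well above background on 7 of 12 arrays and was not tested. It stood at -1.38 on WT replicate 1, against -7.16 to -6.41 on KO, -6.35 to -5.01 on Het and -6.06 to -5.66 on the remaining WT arrays. Areg stood at -6.80, -6.39, -6.42 and -6.46 on the KO arrays, -4.18, -6.03, -3.07 and -2.70 on the Het arrays and -1.48, -5.61, -8.26 and -5.70 on the WT arrays. Areg was well above background on 2 KO, 3 Het and 2 WT arrays and was not tested in the fit. All KO arrays lay below all Het arrays (-2.52, exact permutation p = 0.0286), and its highest level was that of WT replicate 1. Hbegf, a heparin-binding ligand, differed by -0.76 for KO against Het (SE 0.95). Hbegf lay between -2.04 on WT replicate 3 and 3.62 on WT replicate 1.

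On WT replicate 1 the members exceeded the median of the other 11 arrays by a median of 1.86 on the log2 scale, against -0.13 for all tested features. Of the 34 members, 29 (85.3%) were highest there, against 10.2% of all features. More than 4-fold above the median of the other arrays were 14 members (41.2%), against 2.01%, and 14 lay more than 2-fold above the next array, against 1.15%. Fosb lay 41.1-fold above the next highest array, Fos 16.9-fold and Zfp36 11.4-fold, and these 3 genes ranked 1, 2 and 3 among all 16844 features by that measure. Ier3 was 5.46-fold, Atf3 5.16-fold, Junb 5.12-fold and Nr4a1 4.92-fold above the next array. All tested AP-1, EGR and NR4A genes, phosphatases, EGF receptor ligands and other immediate early genes were highest on this array, against 1 of 4 Sprouty and Spred genes and 4 of 6 KLF, Myc and Srf genes. Klf2, Spry1, Spred1, Srf and Spry4 were not, with Spry4 second of 12. A further Klf2 probe was highest there, at 4.01.

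**Figure D3:**
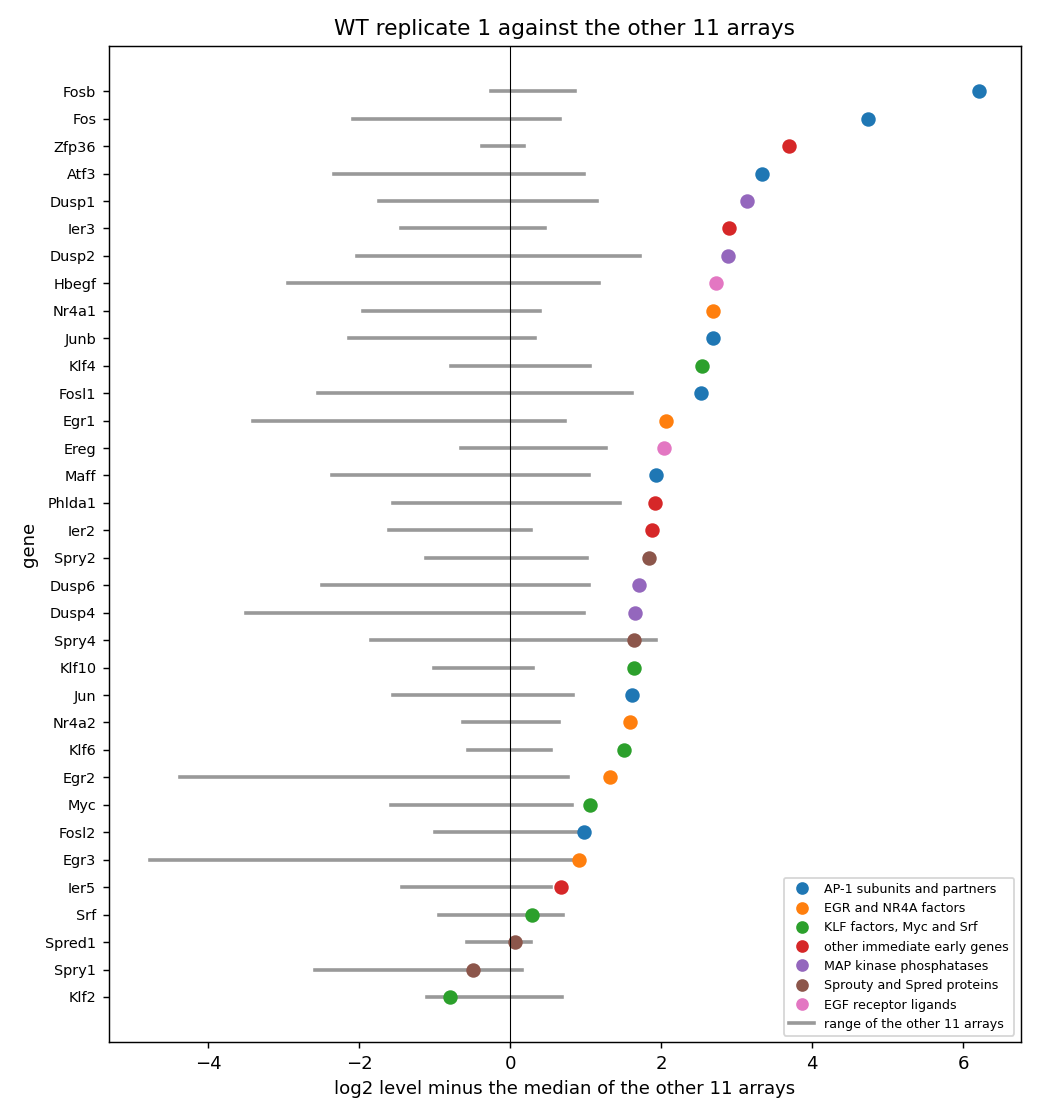
Level on WT replicate 1 (points, coloured by role) and the range of the other 11 arrays (grey bars), each as log2 level minus the median of those 11, for the 34 tested members. The points lie right of the bar for 29 members, furthest for Fosb at 6.21.

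Among other genes of the early response, 34 of 47 (72.3%) were also highest on WT replicate 1, while 1 of 23 Ras to ERK cascade genes (4.35%) was. Of 9 heat shock and dissociation stress genes 4 (44.4%) were highest there, against 10.2% of all features. The other 5 (55.6%) were highest on WT replicate 2, against 16.3%. The 30 features furthest above the next array on WT replicate 1 held 7 members and 4 genes of the pathway lists (Nfkbiz, Cxcl1, Ptgs2 and Csrnp1). WT replicate 1 and slide 2 cannot be told apart. On WT replicate 3 the members showed the opposite: 25 of 34 (73.5%) were lowest of the 12 arrays, against 32.8% of all features, and their median deviation from the mean of the other WT arrays was -2.60, against -0.23. That mean includes the high WT replicate 1, which enlarges the deviation. Against 1.6 and 1.15 on WT replicates 2 and 5, the members' median level was -0.28 on WT replicate 3. Other lists were low there too, with 27 of 47 other early response genes (57.4%) and 6 of 9 heat shock and dissociation stress genes (66.7%) lowest on WT replicate 3. The same deviation of the members was -0.47 on KO replicate 3 and -0.40 on Het replicate 3, against 0.01 and -0.05. Nr4a2, Klf4, Zfp36, Fosb, Spry2, Spry1, Spred1, Klf2 and Ereg were the 9 members that were not lowest on WT replicate 3.

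The members spread more widely than other features within a genotype. Their median SD over the 4 arrays was 0.37 in KO, 0.39 in Het and 1.68 in WT, against 0.23, 0.26 and 0.45 for all features. Pooled over genotypes it was 1.06 for the members and 0.36 for all features. Without WT replicate 1 it was 0.76 against 0.35, without the arrays numbered 3 it was 0.69 against 0.25, and without both it was 0.28 against 0.21. WT replicate 1 was chosen for its levels of these genes, so the last value follows in part from that choice.

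Without the 3 arrays numbered 3, the KO against WT comparison called 10 of 34 members (29.4%), all lower, against 17.3% of all features. They were Fosl1, Fosl2, Jun, Maff, Klf6, Srf, Phlda1, Dusp2, Spry4 and the AK019057 probe named Ereg. Jun fell by 1.29 (SE 0.27, limma adjusted p = 0.013), Fosl1 by 2.07 (SE 0.46, limma adjusted p = 0.0171) and Spry4 by 1.89 (SE 0.41, limma adjusted p = 0.0159). Leaving out WT replicate 3 alone called 9 members (26.5%), all lower, against 9.77% of all features. Het against WT called 3 of 34 members (8.82%), against 12.2% of all features: Dusp6 fell by 1.38 (SE 0.26, limma adjusted p = 0.0122), and Phlda1 and Ereg by 1.24 and 1.14. KO against Het called Spry4 alone (2.94%), against 8.98%, with -2.15 (SE 0.41, limma adjusted p = 0.0129). The shares of members called in these last comparisons were below those of all features.

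WT replicate 1 was then left out too, an alternative chosen after its levels were seen, which leaves 3 KO, 3 Het and 2 WT arrays. KO against WT then called 2 members up (Egr3 and Klf4) and 12 down (Fosl1, Fosl2, Jun, Atf3, Maff, Klf2, Klf6, Srf, Phlda1, Dusp2, Spry4 and Ereg), 41.2% of 34, against 22.3% of all features. Het against WT called Egr3 up and Klf4, Srf, Phlda1, Dusp6 and Ereg down, 17.6%, against 15.4%. KO against Het called Klf4 up and 9 members down (Fosl1, Jun, Atf3, Maff, Klf6, Dusp2, Spry2, Spry4 and Ereg), 29.4%, against 14.3%. At further probes of Klf6 and Klf2 the genotypes overlapped on these arrays. The further Klf6 probe lay at 1.75 to 2.09 in KO, 1.31 to 2.23 in Het and 1.67 to 2.21 in WT cells. That of Klf2 lay at 1.81 to 2.28, 1.98 to 2.33 and 1.91 to 2.32. On these arrays Klf4 averaged 3.71 in KO, 2.48 in Het and 3.16 in WT cells, and KO against Het was 1.24 (SE 0.14, limma adjusted p = 0.000704). Spry4 averaged -5.58 in KO, -3.42 in Het and -3.91 in WT cells, Fosl1 -1.31, 0.32 and 0.31, and Dusp2 -4.70, -2.98 and -3.49. Egr3 averaged -2.51 in KO, -2.57 in Het and -4.42 in WT cells, with 1.91 for KO and 1.85 for Het against WT. Fos, Fosb, Junb and Zfp36, all far up on WT replicate 1, differed by -0.27 to 0.55 in the 3 comparisons and were not called. Ier3 and Nr4a1, also far up there, were not called either. Atf3, far up there too, was called lower in KO against WT and in KO against Het.

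**Figure D4:**
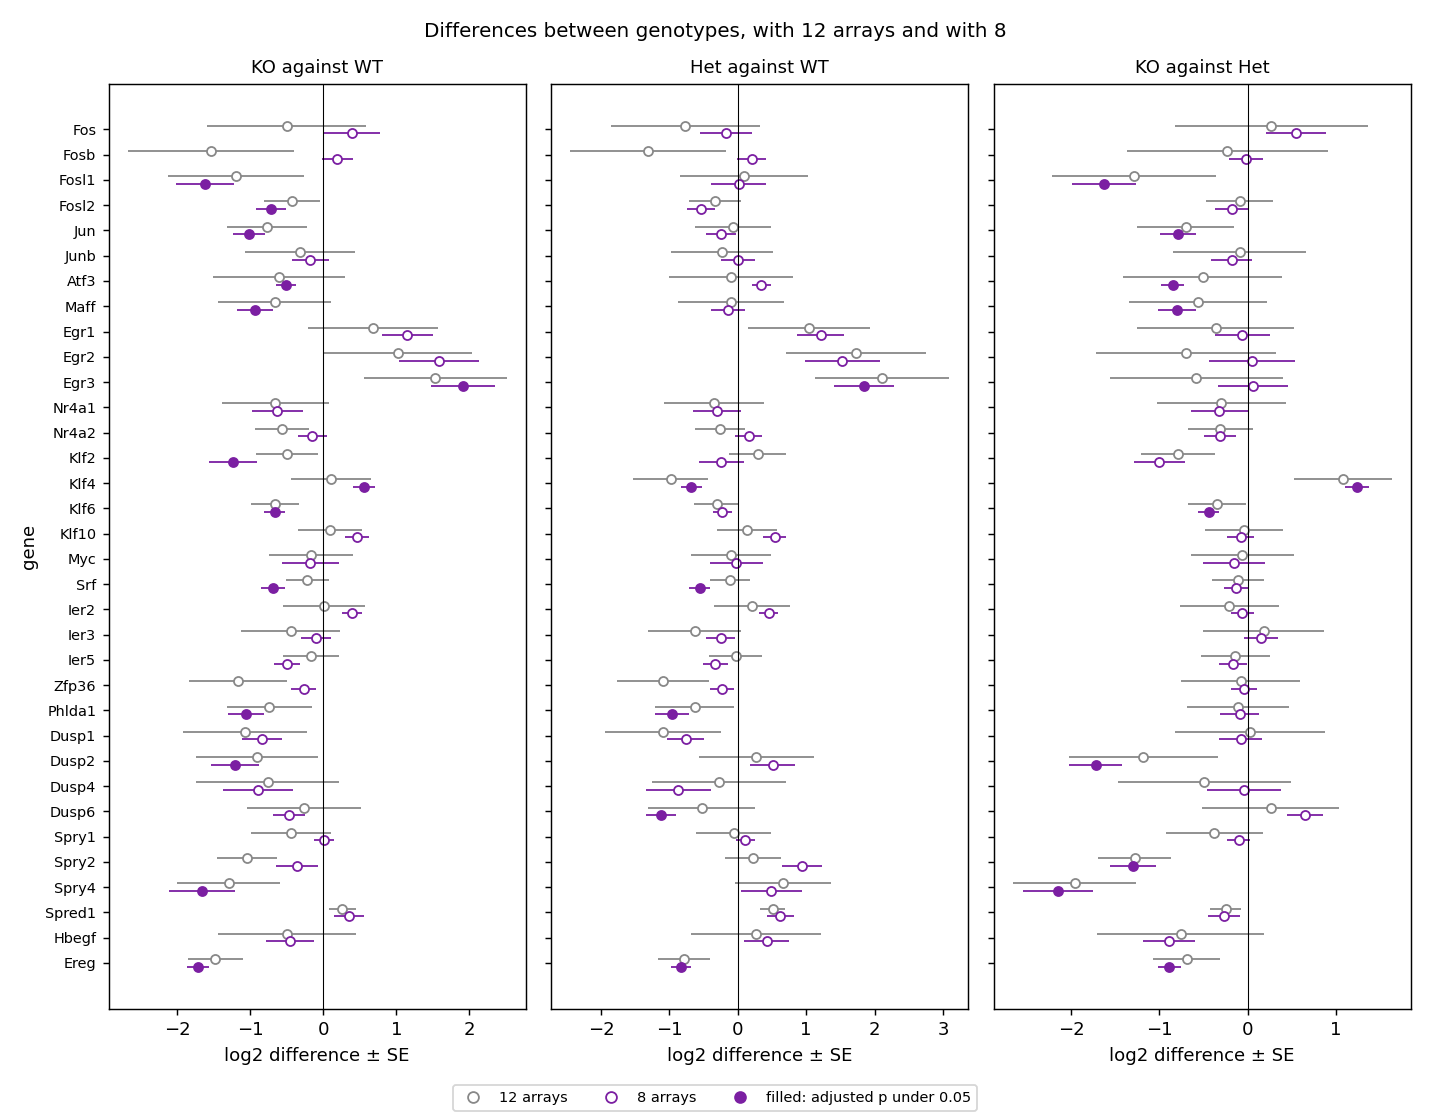
Log2 difference ± SE of the 34 tested members for KO against WT, Het against WT and KO against Het, with all 12 arrays (grey) and with 8 arrays, without the arrays numbered 3 and WT replicate 1 (purple); filled points have a limma adjusted p under 0.05. With 12 arrays no point is filled, and with 8 arrays 14, 6 and 10 are.

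The direction of KO against Het was compared within slides and shared numbers, although the numbers were not taken to pair the arrays. These checks reuse the same arrays: of the KO and Het arrays, slide 3 holds replicate 2 of each, the pair of number 2. Slide 1 holds KO replicate 3 with Het replicates 3 and 4, so number and genotype are mixed there. The members' median deviation from the other arrays of the genotype was -0.47 on KO replicate 3, -0.40 on Het replicate 3 and 0.31 on Het replicate 4. Members lower in KO were 32 of 34 within slide 1 and 26 of 34 within slide 4, with medians of -0.60 and -0.29, against -0.02 and -0.01 for all features. Within numbers 2, 3, 4 and 5 they were 25, 24, 25 and 25 of 34, with medians of -0.27, -0.19, -0.14 and -0.31, against -0.13, -0.01, 0.04 and -0.02 for all features. At all 4 numbers 11 members (32.4%) were lower in KO, against 15.6% of all features: Fosl1, Jun, Nr4a1, Klf6, Srf, Ier2, Ier5, Spry2, Spry4, Hbegf and Ereg. For Klf6, Spry2, Spry4 and Ereg this follows from the lack of overlap between all KO and all Het arrays. A further Klf6 probe was higher in KO at numbers 2, 3 and 4. Klf4 alone was higher at all 4 (2.94%, against 11.1%). KO against WT did not keep 1 direction: 25 of 34 members were lower within number 2 and 21 of 34 within number 5, but 29 of 34 were higher within number 3, which holds WT replicate 3. Slide 3 holds WT replicates 2 and 3, and the mean of both stood for WT there, so its counts include the low WT replicate 3. Within slides, 22 of 34 members were higher in KO than in WT on slide 3 and 13 of 34 on slide 4. Het lay above WT for 26 of 34 members on slide 3 and 19 of 34 on slide 4. Against WT replicate 2 alone, on the same slide, 25 of 34 members were lower on KO replicate 2 and 22 of 34 on Het replicate 2.

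Of 122 tested genes of the surrounding pathway, 0 rose and 2 fell in KO against WT, 0 rose and 1 fell in Het against WT, and 1 rose and 0 fell in KO against Het, with medians of -0.10, -0.11 and -0.08. These are 1.64%, 0.82% and 0.82% of the 122 genes, against 1.64%, 1.18% and 0.997% of all features, so the shares called lay at or below the background. Etv1 stood at -4.38, -4.85, -4.43 and -4.49 on the KO arrays, -2.16, -3.54, -2.97 and -2.91 on the Het arrays and -1.53, -2.50, -3.25 and -1.66 on the WT arrays. Etv1, an ETS factor of the PEA3 group, fell in KO against WT by 2.30 (SE 0.38, limma adjusted p = 0.0163), with all KO arrays below all WT and Het arrays. Leaving out KO replicate 4, KO replicate 5 or WT replicate 5 ended that call (limma adjusted p = 0.0617, 0.0638 and 0.0532), as did normexp background (0.114) and the slide as a block (0.0868). Igf1r stood at 0.63, 0.94, 0.44 and 0.35 on the KO arrays, 0.87, 1.12, 0.70 and 1.02 on the Het arrays and 2.06, 2.04, 0.93 and 1.92 on the WT arrays. Igf1r, the receptor of insulin-like growth factors, fell by 1.15 (SE 0.25, limma adjusted p = 0.0462), a call that 3 of 12 single omissions kept (adjusted p 0.00152 to 0.17). Other settings ended the Igf1r call too: normexp background (limma adjusted p = 0.051), unscaled signals (0.0502), no filter on dim probes (0.111), slide as a block (0.197) and the replicate block (0.226). Amigo2 stood at -1.80, -2.85, -1.67 and -1.64 on the KO arrays, -7.97, -4.16, -7.97 and -7.26 on the Het arrays and -4.01, -3.13, -2.43 and -3.75 on the WT arrays. Amigo2, an adhesion protein, fell in Het against WT by 3.51 (SE 0.74, limma adjusted p = 0.049) and rose in KO against Het by 4.85 (SE 0.74, limma adjusted p = 0.0146). Only 2 of 4 Het arrays showed it well above background, and the calls were kept in 2 and 6 of 12 single omissions (adjusted p 0.00124 to 0.17 and 0.000123 to 0.0625). The slide as a block ended both (limma adjusted p = 0.179 and 0.0638), and 5 further settings ended that of Het against WT (0.0614 to 0.141).

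The 3 largest pathway differences in each comparison included genes that did not pass. Ptgs2, the inducible prostaglandin synthase, differed by -2.57 for KO against WT (limma adjusted p = 0.257) and Dusp9, a cytoplasmic ERK phosphatase, by -1.72 (0.134). For Het against WT, the matrix-associated protein gene Ccn2 differed by -2.55 (0.068) and Rgs2, a regulator of G protein signalling, by 1.98 (0.334). For KO against Het, Dusp9 differed by -2.12 (0.106) and Tnfaip3, an inhibitor of NF-kappaB signalling, by 1.98 (0.384). The 23 genes of the Ras to ERK cascade had medians of 0.02 for KO against WT, 0.08 for Het against WT and -0.06 for KO against Het, with 0 called. Of 9 heat shock and dissociation stress genes, 1 fell in Het against WT, Hspb1 (-1.96, limma adjusted p = 0.0479), a call that 2 of 12 single omissions kept and that 5 other settings ended (0.0655 to 0.169).

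Without the arrays numbered 3, 6 pathway genes rose and 30 fell in KO against WT (29.5% of 122, against 17.3% of all features), 4 rose and 20 fell in Het against WT (19.7%, against 12.2%) and 8 rose and 11 fell in KO against Het (15.6%, against 8.98%). Of 11 Srf partners and ETS factors, 5 fell in KO against WT. Etv4 and Etv5, the other PEA3 group genes and known transcriptional targets of ERK signalling, were named after their values were seen. Etv4 fell by 1.41 (SE 0.22, limma adjusted p = 0.00347) in KO against WT and by 1.27 (SE 0.22, limma adjusted p = 0.00713) in KO against Het. Etv5 fell by 0.88 (SE 0.23, limma adjusted p = 0.0314) in KO against WT and by 1.53 (SE 0.23, limma adjusted p = 0.00378) in KO against Het. With all 12 arrays neither passed in KO against WT (-0.98 and -1.27, limma adjusted p = 0.348 and 0.0939) or in KO against Het (-1.15 and -1.54, limma adjusted p = 0.406 and 0.0632). Without the arrays numbered 3 the cascade itself had 1 gene up and 0 down of 23 in KO against WT. That setting keeps WT replicate 1, the highest array for most other early response genes. Without that array too, 16 pathway genes rose and 35 fell in KO against WT (41.8%, against 22.3%). In Het against WT 13 rose and 21 fell (27.9%, against 15.4%), and in KO against Het 13 rose and 19 fell (26.2%, against 14.3%). Of 47 other early response genes, those called in KO against WT went from 2 up and 16 down to 11 up and 19 down.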

How the data were processed

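Each of the 12 arrays is a one-colour Agilent whole mouse genome array, read with Agilent Feature Extraction 9.5 per the file headers. The deposited scanner files give the intensity of each spot on a linear scale, and the processed signal used here was background-subtracted by that software and not scaled between arrays. Control spots and outlier spots were left out, spots of 1 probe were averaged, and the log2 signal was set relative to the 75th percentile of its array. The brightest probe by mean level stood for each gene name. Testing required a signal well above background on every array of 1 genotype or more, a condition that 16844 of 27670 features met. The test was limma's (3.58.1, R 4.3.3) over all 12 arrays and all tested features, with Benjamini-Hochberg adjustment and a call at an adjusted p under 0.05. Single values were also compared with an exact two-sided permutation test over arrays.

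The members, the lists and the alternatives were chosen with earlier results of these data known. Members called in any comparison and the 4 with the largest difference in each comparison are given with full values, and other members by range. Fos, Jun, Egr1, Klf4, Zfp36, Spry1 and Areg fall outside this rule, and their values on every array were added after they had been seen. Of the pathway lists, called genes and the 3 largest differences per comparison are named. The fit was tested on simulated data with the same independent noise for every feature and no array that stood apart. That test therefore does not cover the wide spread of the members. Gene symbols were updated through RefSeq accessions and synonyms where these matched, while members were matched on the array's own names. Alternatives covered the background correction, scaling, filter, probes, slide and number blocks, array weights and the leaving out of arrays. The number of arrays limits the precision. The position of each probe is that of the array's annotation on build mm7, and no genome of that build was used here. Figures were drawn with matplotlib 3.10.9.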

Additional observations from a re-analysis of the deposited data

Results flagged for a closer look

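In the groups of 4 arrays, 8 of the 102 groups formed by 34 tested members and 3 genotypes held an array far from the other 3, by Dixon's gap test at the 95% level. Chance flags about 1 in 20 groups.

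WT replicate 1 was the distant array for 3 members. Fosb stood at 2.55 there, with the next WT array at -3.30. Zfp36 stood at 3.32, with the next at -0.19. Klf4 stood at 5.76, with the next at 3.21.

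Het replicate 3 was the distant array for 3 members. Egr2 stood at 1.55, with the next Het array at 0.87, and Klf4 at 3.65, with the next at 2.50. Spry1 was low at 0.42, with the next at 1.86.

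KO replicate 3 was the distant array for 2 members, both low. Nr4a2 stood at -1.43, with the next KO array at -0.83, and Spry1 at -0.80, with the next at 1.58.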

How the results depend on the processing

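Over 24 alternatives, the count of members called moved from 0 with these settings, for KO against WT, Het against WT and KO against Het in this order. Array weights called 12, 3 and 9 members (35.3%, 8.82% and 26.5%), below the 39.8%, 19.9% and 33.7% of all features. Leaving out the 3 arrays numbered 3 called 10, 3 and 1, and leaving out WT replicate 1 as well, chosen after the data were seen, called 14, 6 and 10. Number 3 as a block called 1 member for KO against WT (2.94%, against 4.31% of all features; Ereg, limma adjusted p = 0.0456). Leaving out 1 array at a time gave 0 to 9, 0 to 2 and 0 to 1 members called and medians of -1.10 to -0.05, -0.75 to 0.34 and -0.42 to -0.12. The 9 and 2 (26.5% and 5.88%, against 9.77% and 8.18% of all features) came without WT replicate 3, and the 1 (2.94%, against 0.968%; Spry2, limma adjusted p = 0.0432) without WT replicate 1.

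Fosb changed sign for KO against WT, to 0.06 with the replicate block, 0.01 without WT replicate 1 and 0.19 without that array and the arrays numbered 3. For Het against WT, Fosb changed sign to 0.17 with the slide as a block, 0.29 with the replicate block, 0.23 without WT replicate 1 and 0.20 without that array and the arrays numbered 3, and Dusp1 to 0.08 with the slide as a block. With 1 array left out at a time, Fosb ranged between -2.15 and 0.01 for KO against WT and between -1.93 and 0.23 for Het against WT. WT replicate 1 is the only array on slide 2 and the only one numbered 1. The slide block and the replicate block therefore take it out of the genotype differences, as leaving it out does. Why WT replicate 1 stood apart was not tested. Of 10 array pairs with the same number in different genotypes, 5 had deviations that correlated above 0.1 (-0.0367 to 0.427), among them all 3 pairs numbered 3 (0.22 to 0.427), against 12 of 38 pairs with different numbers. Since not every pair was above 0.1, the numbers were not taken to pair the arrays. With the replicate block 0 members were called in each comparison, with medians of -0.12, 0.24 and -0.31.

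Signals near background limit the folds of Egr3, Dusp2, Spry4 and Areg. WT replicate 1 lies alone on its slide, so array and slide cannot be told apart.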
